A study of Mus musculus with 2 samples.

Results

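Valine, leucine and isoleucine, the branched-chain amino acids, are taken apart in mitochondria. A transaminase first removes their amino group, and the branched-chain ketoacid dehydrogenase complex then removes a carboxyl group and attaches coenzyme A. Each product follows its own short series of dehydrogenases, carboxylases, hydratases and hydrolases, which ends in acetyl-CoA, acetoacetate or propionyl-CoA. The liver is known for little transaminase and ample dehydrogenase complex, and it thus handles ketoacids released by other tissues. A raised level of these amino acids in blood is a known companion of obesity and insulin resistance.

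The genes described here encode enzymes of this pathway and were chosen by name: Bckdha, Bckdhb, Dbt, Ivd, Mccc1, Mccc2, Hibch, Hibadh, Acadsb and Acad8. They were chosen with earlier results of these data known. Of these 10 genes, 6 were among the 8551 genes with values in the table used here, namely Bckdha, Ivd, Mccc2, Hibch, Acadsb and Acad8. Bckdhb, Dbt, Mccc1 and Hibadh were not analysed here. Gene expression had been profiled by sequencing of digital gene expression tags in the liver of 9-week-old male mice, wild type (normal) or db/db (diabetic). The labels give both groups a C57BL/6 background. The db/db mice carry a mutation of the leptin receptor gene in every tissue, overeat and become obese and diabetic, so obesity and diabetes cannot be told apart in them. All mice ate chow freely and were killed early in the light phase, and the sources used here do not say whether RNA of several mice was pooled or whether the groups were littermates. The methods name 2 suppliers of mice, and supplier and genotype cannot be told apart. Each group is 1 library, and what follows therefore has no replicate check.

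Values are tags of a gene per 1000000 clean tags of its library, called TPM in the deposited table. This unit is not divided by transcript length, so a difference in level between genes is not one in transcript number. The values rose in steps of 1 read, which gave 10278531 clean tags for normal and 13508232 for diabetic liver. Genes with a mean under 1 TPM were left out of the deposited table, and all 6 listed members were above 1 TPM in each library. Liver markers had been fixed as a check of the tissue, and 6 of 7 hepatocyte markers were listed, with summed levels of 16145 TPM (normal) and 15991 TPM (diabetic). Of these, Hnf4a, a transcription factor that maintains hepatocyte identity, was at 96.8 and 46.2 TPM. Hnf4a was called lower by the criteria given below, also under TMM scaling, and the other 5 were not called. Of 10 macrophage markers 8 were listed, and their sum was 327 and 194 TPM. Most of this difference lay in C1qa, at 176.5 and 50.7 TPM, while Cd5l was at 64.7 and 62.9 TPM and C1qb at 38.1 and 57.8 TPM. By the criteria given below 4 of the 8 macrophage markers were called lower and 1, C1qb, higher (4 and 0 under TMM scaling). Of all listed genes 8.19% were called lower and 22.9% higher (13.4% and 14.9% under TMM scaling). The 6 listed of 7 stellate cell or fibroblast markers summed to 107 and 154.5 TPM, with Col1a1 called higher. The 3 listed of 5 cholangiocyte markers summed to 61.5 and 107 TPM. Of these, Spp1 was called higher at 57.2 and 103 TPM, while Krt7 was at 1.07 and 1.18 TPM and Epcam at 3.21 and 3.04 TPM. The 7 endothelial markers summed to 114 and 103 TPM, with Kdr called higher and Clec4g lower. The listed T cell, B cell and erythroid markers (1, 2 and 1 genes) summed to 1.95, 5.35 and 51.9 TPM in normal and 1.55, 3.77 and 44.2 TPM in diabetic liver, and none of them was called (1 B cell marker was called lower under TMM scaling). Under median-ratio scaling Kdr and Spp1 were not called, and Spp1 was also not called under upper-quartile scaling. None of the 4 skeletal muscle or the 4 adipocyte markers was listed. What part these markers have in the ratios below was not tested. In a bulk library, fewer cells of a type and less RNA per cell cannot be told apart.

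In a tag library of this type a transcript is meant to be counted by a short tag that begins at its DpnII site nearest the 3′ end. DpnII cuts at GATC. The labels state that the cDNA was primed with random hexamers. To show what a count of each listed member stands for, the last such site within the RefSeq gene was located in its GENCODE transcript, and the site with the 16 bases after it is printed 5′ to 3′ with GATC in capitals. The positions are those of the GRCm38 assembly, while the submitters' processing notes name mm9.
Bckdha tag, chr7:25631776-25631795, minus strand, exon 6 of 9: GATCtgttactttggcgagg
Mccc2 tag, chr13:99954641-99954660, minus strand, exon 14 of 17: GATCgtacggggctggaaac
Ivd tag, chr2:118882399-118882418, plus strand, exon 12 of 12: GATCaaaatgaggcagagga
Acadsb tag, chr7:131445344-131445363, plus strand, exon 11 of 11: GATCagtgttagggatttac
Acad8 tag, chr9:26974571-26974590, minus strand, exon 11 of 11: GATCagtggtacagtgtttg
Hibch tag, chr1:52920573-52920592, plus strand, exon 14 of 14: GATCcatacaccaatgtttt

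The Bckdha and Mccc2 tags lie in the coding sequence, and the other 4 lie in the 3′ UTR. Each of the 6 sequences was found at a DpnII site of 1 gene only when all GENCODE transcripts were searched. The Acadsb transcript in GENCODE runs 2733 bases past the end of the RefSeq gene, with 6 more DpnII sites that were not used, and was ended at the RefSeq end. The distance from the printed site to the end of the transcript ran from 414 bases in Hibch to 960 bases in Bckdha. Mccc2 held only 2 DpnII sites, against 13 each in Ivd and Acad8. The deposited values do not say which site gave the reads, and reads from other sites of a transcript may be included.

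**Figure D1:**
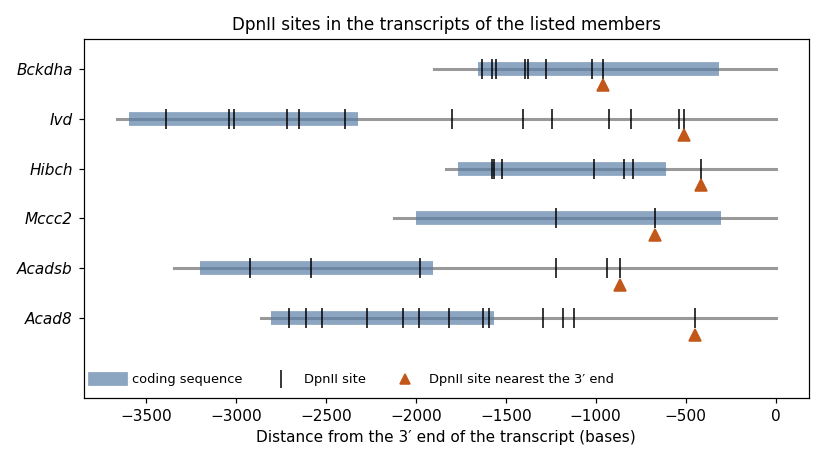
DpnII sites (black ticks) in 1 transcript of each of the 6 listed members, drawn by distance in bases from the 3′ end, with the coding sequence in blue and the site nearest the 3′ end marked by a triangle. The marked site lies in the coding sequence in Bckdha and Mccc2 and in the 3′ UTR in the other 4 genes.

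All 6 listed members were higher in the diabetic than in the normal library. Their summed level was 213 TPM in normal and 602 TPM in diabetic liver, from 2185 and 8137 reads. A gene was called higher when its level differed at least 1.5-fold and the false discovery rate (FDR) of an exact binomial test on the reads was under 0.001. This test compares 2 libraries and covers counting error only. By it 6 of the 6 listed members were called higher, whereas 22.9% of all listed genes were called higher and 8.19% lower. As the members were chosen with earlier results of these data known, these shares describe the set and do not test it. By the fold alone 34.4% of all listed genes were at least 1.5-fold higher. The median log2 ratio of diabetic over normal was 1.33 over the 6 members (2.51-fold) and 0.25 over all listed genes (1.19-fold).

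The ketoacid dehydrogenase complex commits the carbon skeleton to breakdown, and Bckdha (Entrez 12039) encodes the alpha subunit of its decarboxylase. Bckdha was at 80.4 TPM in normal and 260.4 TPM in diabetic liver, from 826 and 3518 reads. It was thus 3.24-fold higher, with a log2 ratio of 1.70 (95% Clopper-Pearson interval, 1.59 to 1.81), and the exact binomial FDR was 3.5e-248. A larger ratio was seen for 5.75% of all listed genes.

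In the leucine branch, Ivd (Entrez 56357) encodes isovaleryl-CoA dehydrogenase, a flavoprotein that acts directly after the complex. Ivd was read 501 times in normal and 1554 times in diabetic liver, at 48.7 and 115 TPM. Its log2 ratio was 1.24 (95% interval, 1.09 to 1.39), a 2.36-fold higher level. Mccc2 (Entrez 78038) encodes the beta subunit of 3-methylcrotonyl-CoA carboxylase, the biotin enzyme of the next step. Mccc2 was at 29.1 and 101 TPM from 299 and 1369 reads, normal before diabetic. It had the highest ratio of the 6 members, 3.48-fold (log2 ratio 1.80, 95% interval 1.62 to 1.99).

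In the isoleucine branch, Acadsb (Entrez 66885) encodes the short/branched-chain acyl-CoA dehydrogenase. Acadsb was at 11.9 TPM from 122 reads in normal liver and at 31.8 TPM from 429 reads in diabetic liver. The log2 ratio was 1.42 (95% interval, 1.13 to 1.72), 2.68-fold.

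In the valine branch, Acad8 (Entrez 66948) encodes isobutyryl-CoA dehydrogenase, and Hibch (Entrez 227095) encodes the hydrolase that frees 3-hydroxyisobutyrate from coenzyme A. Hibch was read 392 times in normal and 1154 times in diabetic liver (38.1 and 85.4 TPM), with a log2 ratio of 1.16 (95% interval, 1.00 to 1.33). Acad8 had the fewest reads, 45 and 113, which is 4.38 and 8.37 TPM in the same order. Its log2 ratio of 0.93 (1.91-fold) was the lowest of the 6 and had the widest interval, 0.42 to 1.47, with an exact binomial FDR of 0.00042. The lower bound of that interval lies under a 1.5-fold difference, while the lower bounds of the other 5 members lie above it.

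**Figure D2:**
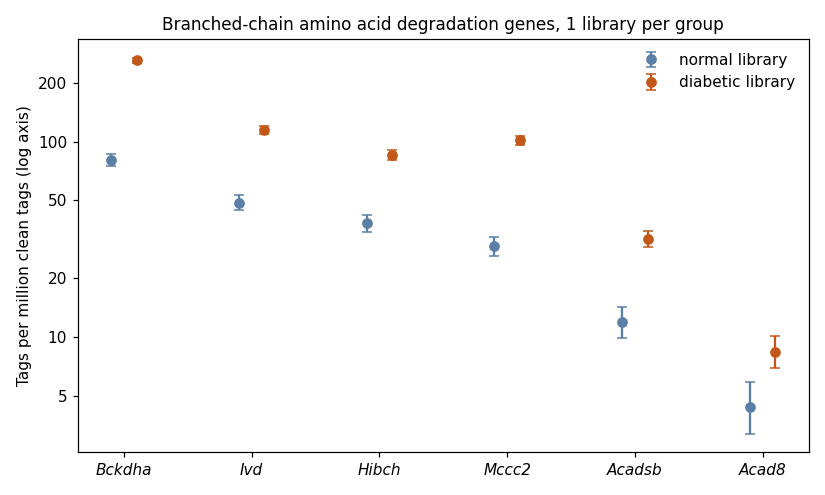
Level of each listed member in the normal (blue) and diabetic (orange) library, in TPM on a log axis, with 1 library per group and bars for the exact 95% Poisson interval of the reads. The diabetic point lies above the normal point for all 6 genes, and the bars are widest for Acad8, with 45 and 113 reads.

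**Figure D3:**
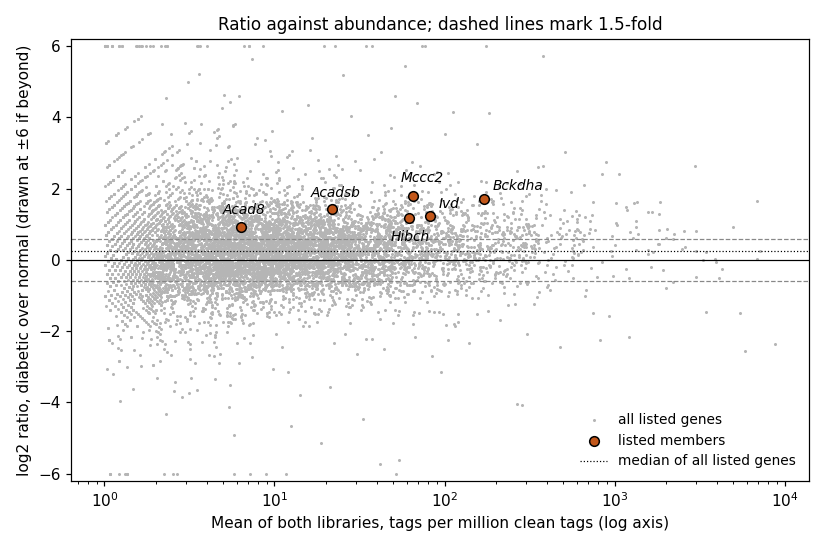
The log2 ratio of diabetic over normal against the mean level of both libraries for the 8551 listed genes (grey) and the 6 listed members (orange), with dashed lines at 1.5-fold and a dotted line at the median of all listed genes, 0.25. The members lie between 0.93 and 1.80, above the dashed line.

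Since the median of all listed genes was itself above 0, the ratios were also read under other scalings between the libraries. Trimmed mean of M values (TMM) scaling lowered each log2 ratio by 0.25, and by construction no order among genes changed. Under TMM scaling 5 of the 6 listed members were called higher and 0 lower, beside 14.9% of all listed genes called higher and 13.4% called lower. Acad8 was the exception, with a log2 ratio of 0.68 and an exact binomial FDR of 0.015, so that it stayed above 1.5-fold but missed the FDR threshold. It was also not called under the other scalings, and its lowest log2 ratio was 0.63, under median-ratio scaling. The median of the members was 1.08 under TMM scaling, beside 0.00024 for all listed genes.

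**Figure D4:**
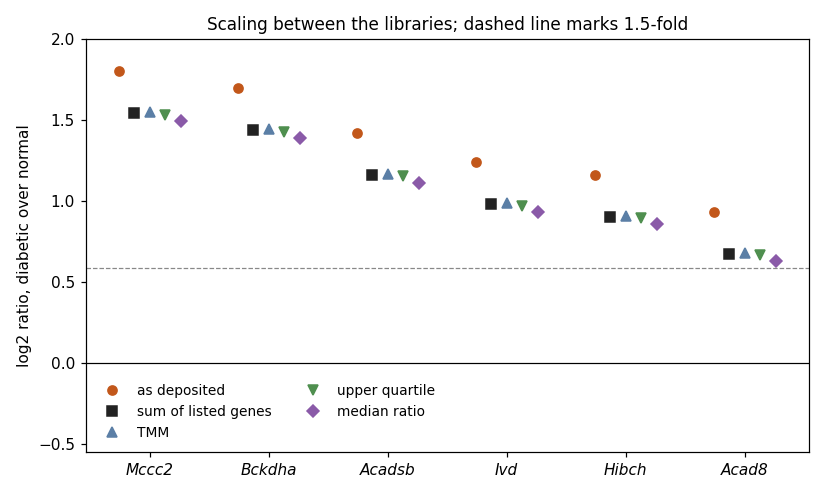
The log2 ratio of diabetic over normal for the 6 listed members with the values as deposited and under scaling to the sum of the listed genes, TMM, upper-quartile and median-ratio scaling, with a dashed line at 1.5-fold. Every point lies above the dashed line, and the lowest is Acad8 under median-ratio scaling at 0.63.

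To see whether the members differed by the same factor, the fold change of each was divided by that of every other, a measure on which the scaling between libraries has no bearing. Of the 15 pairs, 7 had a 95% exact conditional interval that left out 1 and 8 had an interval that held it. Mccc2 and Bckdha headed the order with a ratio of folds of 1.08 (95% interval, 0.93 to 1.25). Mccc2 exceeded Ivd by a ratio of folds of 1.48 (95% interval, 1.25 to 1.74) and Hibch by 1.56 (95% interval, 1.31 to 1.85). Bckdha exceeded the same genes by 1.37 (95% interval, 1.21 to 1.56) and 1.45 (95% interval, 1.26 to 1.66). Both also exceeded Acad8, by 1.82 for Mccc2 (95% interval, 1.23 to 2.66) and 1.70 for Bckdha (95% interval, 1.16 to 2.44). Acadsb stood between, with a difference from Mccc2 (ratio of folds 1.30, 95% interval 1.02 to 1.66) but an interval that held 1 against each of the other 4. Among Ivd, Hibch and Acad8 the 3 ratios of folds ran from 1.05 to 1.24 and every interval held 1. These intervals were not adjusted for the number of pairs and do not cover variation between mice.

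The starts of Bckdha and Mccc2 are printed, as the 2 members with the highest ratios, together with that of Ivd. RefSeq promoter sequences of 300 bases on GRCm38.p6, from 250 bases before to 50 after a transcript start, were found for 9 of the 10 genes, all 6 listed members among them. The letters searched on both strands were those of the CCAAT box (CCAAT), the GC box (GGGCGG) and the E-box (CACGTG). Also searched were the extended nuclear receptor half-site (AAGGTCA), the TATA box (TATAAA) and the YY1 motif (AAGATGGC). Matches are in capitals.
Bckdha, chr7:25658712-25659011, minus strand: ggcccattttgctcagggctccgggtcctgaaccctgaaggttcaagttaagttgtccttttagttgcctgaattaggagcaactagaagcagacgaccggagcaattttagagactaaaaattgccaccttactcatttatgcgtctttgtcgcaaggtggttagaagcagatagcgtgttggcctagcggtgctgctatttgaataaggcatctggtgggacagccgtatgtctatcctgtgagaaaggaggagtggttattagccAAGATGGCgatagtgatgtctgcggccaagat
Mccc2, chr13:100015590-100015889, minus strand: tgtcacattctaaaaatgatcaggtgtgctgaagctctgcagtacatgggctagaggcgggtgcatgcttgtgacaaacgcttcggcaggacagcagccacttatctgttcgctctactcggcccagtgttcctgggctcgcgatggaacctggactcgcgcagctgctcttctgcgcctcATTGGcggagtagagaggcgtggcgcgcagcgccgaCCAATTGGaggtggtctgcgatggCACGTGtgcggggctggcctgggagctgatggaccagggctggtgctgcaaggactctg
Ivd, chr2:118861744-118862043, plus strand: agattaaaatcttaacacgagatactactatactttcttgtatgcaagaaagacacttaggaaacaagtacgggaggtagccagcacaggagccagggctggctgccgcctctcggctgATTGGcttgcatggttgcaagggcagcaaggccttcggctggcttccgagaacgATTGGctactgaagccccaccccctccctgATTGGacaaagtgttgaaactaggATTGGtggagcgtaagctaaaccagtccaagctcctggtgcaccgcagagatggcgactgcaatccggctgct

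Bckdha held AAGATGGC, the letters of the YY1 motif, once, and none of the other motifs. These letters are in 2.75% of all 32851 promoters and in 4.53% of those of genes in the expression table. Mccc2 held CCAAT, the CCAAT box, 3 times, with 2 of the matches overlapping on opposite strands, and CACGTG, the E-box, once. Ivd held CCAAT 4 times, each on the reverse strand. CCAAT is found in 37.4% of all promoters and 36.9% of those of genes in the expression table, and CACGTG in 7.15% and 10.4%. The GC box GGGCGG was found 6 times in Hibch, 5 times in Acadsb and 3 times in Acad8, beside 35.7% of all promoters with at least 1 match and 62.1% of the promoters of genes in the expression table. Acad8 also held CCAAT once. AAGGTCA (4.72% of all promoters and 3.55% of those of genes in the expression table) and TATAAA (13.6% and 7.55%) were found in none of the 6 windows. No motif was common to all 6 members, and the pair with the highest ratios, Bckdha and Mccc2, shared none of the 6.

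Other genes of the pathway were taken from lists, in which 44 of 61 genes were listed. Of the 44, 24 were called higher, 0 were called lower and 20 were not called. Over all listed genes 22.9% were called higher and 8.19% lower. With TMM scaling 20 of the 44 were called higher and 3 lower, beside 14.9% and 13.4% of all listed genes. Among 11 listed genes of other degradation steps 9 were called higher, with a median log2 ratio of 1.23, near the 1.33 of the members and above the 0.25 of all listed genes. Under TMM scaling 7 of the 11 were called higher. Several of these enzymes also serve fatty acid oxidation.

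A transaminase gene of the step before the complex differed in ratio from Bckdha. Bckdhb and Dbt were not analysed here, so this does not describe the whole complex. Bcat2 (Entrez 12036), the mitochondrial transaminase, was read 115 times in normal and 136 times in diabetic liver, at 11.2 and 10.1 TPM. Its log2 ratio was -0.15 (95% interval, -0.52 to 0.22), and it was not called. The fold of Bckdha was 3.60 times that of Bcat2 (95% interval, 2.75 to 4.71). Bcat1, the cytosolic transaminase, and Bckdk, the kinase that inhibits the complex, were not analysed here.

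Of the genes that act on the complex, Ppm1k (Entrez 243382) encodes the phosphatase that activates it. Ppm1k was at 15.2 TPM (normal) and 27.3 TPM (diabetic), with a log2 ratio of 0.85 (95% interval, 0.57 to 1.13). Klf15 (Entrez 66277), a transcription factor known to act on amino acid breakdown, was at 38.8 and 79.1 TPM, a log2 ratio of 1.03 (95% interval, 0.86 to 1.20). Dld (Entrez 13382), the dihydrolipoamide dehydrogenase shared with the pyruvate and oxoglutarate complexes, was at 34.3 and 65.4 TPM, a log2 ratio of 0.93 (95% interval, 0.75 to 1.11). All 3 were called higher, beside 22.9% of all listed genes. The fold of Bckdha exceeded theirs by 1.80 for Ppm1k, 1.59 for Klf15 and 1.70 for Dld, each with an interval that left out 1. Under median-ratio and upper-quartile scaling Ppm1k was not called, with log2 ratios of 0.54 and 0.58. In the sister complexes, Pdha1 of pyruvate dehydrogenase and Dlst of oxoglutarate dehydrogenase had log2 ratios of 0.93 and 0.98 and were called higher. Dlat and Pdhx, the other listed genes of these complexes, were not called. Dlat had 23 and 55 reads and a log2 ratio of 0.86, above 1.5-fold but short of the FDR threshold. Pdhx had 98 and 99 reads and a log2 ratio of -0.38.

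Further enzymes of each branch were also higher. In the leucine branch Auh, the methylglutaconyl-CoA hydratase, was at 11.2 TPM in normal and 40.6 TPM in diabetic liver, 3.63-fold higher. In the isoleucine branch Hsd17b10 was 2.77-fold higher, and Acat1, the thiolase, had the largest ratio of the pathway genes, 4.95-fold (31 and 202 reads, log2 ratio 2.31, 95% interval 1.76 to 2.90). In the valine branch Aldh6a1, the methylmalonate semialdehyde dehydrogenase, went from 95.3 to 236 TPM, 2.47-fold. The hydratase Echs1, which acts in the valine and isoleucine branches, was 3.29-fold higher. Abat, Hadh and Acaa2 were also called higher at 2.34-fold, 1.70-fold and 1.58-fold. Hadh and Acaa2 fell under 1.5-fold with TMM scaling. Oxct1, which activates ketone bodies outside the liver, was at 2.04 and 1.55 TPM from 21 reads each and was not called.

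Propionyl-CoA from valine and isoleucine is carboxylated and rearranged to succinyl-CoA. Of 7 listed genes of this arm 3 were called higher, beside 22.9% of all listed genes. The median log2 ratio of the 7 was 0.72, under the 1.33 of the members. Pcca, the alpha subunit of propionyl-CoA carboxylase, was at 40.6 TPM (normal) and 117 TPM (diabetic), 2.89-fold higher. Pccb, the beta subunit of that enzyme, was at 68.3 and 100.1 TPM, 1.47-fold higher and under the fold threshold. The fold of Pcca was larger than that of Pccb by a ratio of folds of 1.97 (95% interval, 1.71 to 2.28). The epimerase Mcee was 2.78-fold higher, and Mmachc, which processes cobalamin, 2.07-fold. Mut, the cobalamin-dependent mutase, had 50 and 108 reads and a log2 ratio of 0.72 (95% interval, 0.22 to 1.23), with an exact binomial FDR of 0.0082, and was not called. Mmab and Mmadhc were not called either. Of the 8 subunit pairs set for such a comparison, this was the only one with both genes listed.

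Ivd, Acadsb and Acad8 belong to the acyl-CoA dehydrogenases, flavoproteins that pass electrons to the respiratory chain. All 7 other listed members of this family were called higher, beside 22.9% of all listed genes. Their median log2 ratio was 1.37, beside 0.25 over all listed genes, and their range was 0.70 to 1.70. The 3 branched-chain enzymes, with 0.93 to 1.42, lay within that range. Acads (short-chain, 3.24-fold), Acadm (medium-chain, 2.72-fold) and Acadl (long-chain, 2.65-fold) had the largest ratios among the 7. Acad9 was 2.58-fold, Acad11 2.20-fold, Acadvl 1.64-fold and Gcdh, which acts on lysine and tryptophan products, 1.62-fold higher. Under TMM scaling 5 of the 7 were called higher, beside 14.9% of all listed genes. Etfdh, which takes the electrons to ubiquinone, was at 197 and 589 TPM and was 2.99-fold higher. Etfa, a subunit of the flavoprotein that carries them, was at 257 and 331 TPM, 1.29-fold higher and under the fold threshold.

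Genes of transport and cofactor supply had ratios on both sides of 0. Of 4 listed transport genes 0 were called, although 2 were above 1.5-fold without passing the FDR threshold. Of 6 listed cofactor genes 0 were called and 1 was above 1.5-fold. Beside these, 22.9% of all listed genes were called higher and 8.19% lower. For lists this short, 0 calls cannot be set apart from those shares. Slc25a44, a mitochondrial carrier for branched-chain amino acids, was at 53.8 TPM in normal and 37.2 TPM in diabetic liver, with a log2 ratio of -0.53 (95% interval, -0.71 to -0.36) that stayed within 1.5-fold. Lias, which makes the lipoyl group of the complex, was at 65.4 and 45.2 TPM, a log2 ratio of -0.53 (95% interval, -0.69 to -0.37). Slc19a2, a thiamine transporter, was at 54.9 and 41.0 TPM, a log2 ratio of -0.42 (95% interval, -0.59 to -0.25). These 3 genes were called lower with any of the 4 other scalings, under TMM scaling with log2 ratios of -0.79, -0.78 and -0.67. Under TMM scaling 13.4% of all listed genes were called lower. Pcx, a biotin enzyme like Mccc2 and Pcca that feeds gluconeogenesis, was at 38.8 and 35.0 TPM and was not called.

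**Figure D5:**
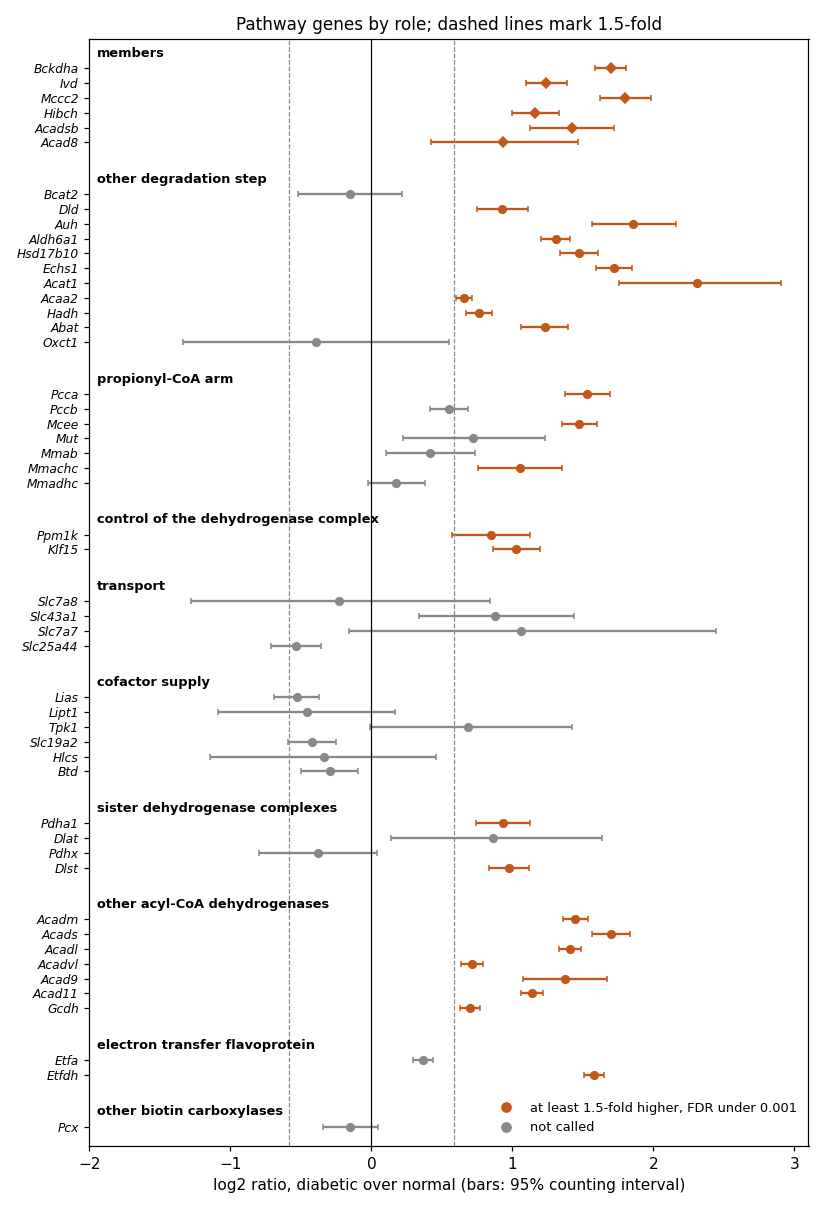
The log2 ratio of diabetic over normal with its 95% counting interval for the 6 listed members (diamonds) and 44 other listed genes of the pathway lists (circles), grouped by role, in orange where called higher and in grey where not called. The members and most degradation enzymes lie right of the dashed 1.5-fold line, while Bcat2 and 7 of the 10 transport and cofactor genes do not. Of all listed genes 34.4% were at least 1.5-fold higher by the fold alone.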

How the data were processed

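Total liver RNA was turned into digital gene expression tag libraries with DpnII and read on an Illumina 1G sequencer, 1 library per group. The authors compared clean tags with RefSeq and deposited values they call TPM, which are RPM, tags per 1000000 clean tags, rounded to 2 decimals, with 0.01 for 0. The build is mm9 per the labels, and the aligner is not given in the sources used here. No sample column was left unused. Reads were recovered from the steps of the values (8513 of 8513 and 8536 of 8537 values above 0.01 whole within 0.005 TPM). Fold changes use the deposited values. The FDR comes from exact binomial tests (two-sided) of the recovered reads with Benjamini-Hochberg adjustment over 8551 genes, with thresholds of 1.5-fold and 0.001 as in the study. Intervals are 95% and cover counting error only, since each group is 1 library. Tags carry no molecular identifiers, so copies of 1 tag cannot be told from separate tags. The scripts were tested on simulated data. The members and lists were chosen with earlier results of these data known, and 2 genes of the lists are not reported here and are left out of the list counts. Named were all listed members, listed genes called in the pathway lists, and fixed partners, while Oxct1, Mut, Mmab, Mmadhc, Dlat, Pdhx, Etfa, Pcx, Slc25a44, Lias, Slc19a2 and the named markers were chosen after their values were seen. Alternative scalings were to the sum of the listed genes, TMM (30% of ratios and 5% of abundances trimmed), upper quartile (75th percentile) and median ratio (means of 10 TPM or more). The software was scipy 1.17.1 and numpy 2.4.6 under Python 3.11.15, with tables in pandas 2.3.3 and plots in matplotlib 3.10.9. Member pairs were chosen for comparison after seeing the data.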

Additional observations from a re-analysis of the deposited data

How the results depend on the processing

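With 1 library per group no replicate could be left out, and no paired analysis was possible because each group holds 1 library. The 4 scalings, a pseudocount of 1 TPM, a fold threshold of 2, the fold alone, the Audic-Claverie test and a minimum mean of 5 TPM left the number of listed members called higher at 5 or 6 and the number called lower at 0. Only when a variation of 20% between samples was assumed in addition did the number fall further, to 1 of 6 members, Mccc2, and to 2 of 11 genes of other degradation steps, Auh and Acat1. Over all listed genes that setting left 176 called higher and 64 lower, against 1955 and 700. The 4 scalings gave 1133 to 1270 higher and 1147 to 1262 lower, so that 47.3% to 52.5% of the calls were higher instead of 73.6%. A fold threshold of 2 gave 1236 higher and 387 lower, and the fold alone 2941 and 1310. The median log2 ratio of the members, 1.33 as deposited, was 1.02 to 1.08 under the 4 scalings and 1.29 with the pseudocount, and no member's ratio changed sign. The ratio of folds of Pcca to Pccb was 1.95 with the pseudocount. The limit that a count of 0 allows, 3 reads, was 0.292 TPM for normal and 0.222 TPM for diabetic liver, under the level of every listed member.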

Other observations

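The DpnII sites nearest the 3′ end were also located in the 4 members without values here. The Bckdhb site, 72 or 73 bases from the end of its 2 transcripts, and the Mccc1 site, 92 bases from the end, gave tags found in 1 gene each. The Hibadh tag was also found in Gm11225. The Dbt tag was found in transcripts of 32 genes, Dbt included. In all, 2 of these 4 genes and 6 of the 6 listed members had a tag found in 1 gene only, and whether this bears on which genes had values was not tested.
Bckdhb tag, chr9:84124168-84124187, plus strand: GATCttaagactgtttcatg
Mccc1 tag, chr3:35959905-35959924, minus strand: GATCtcggagagaggagctt
Hibadh tag, chr6:52547043-52547062, minus strand: GATCtgggattggctcaaga
Dbt tag, chr3:116549239-116549258, plus strand: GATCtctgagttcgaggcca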
